A study of Saccharomyces cerevisiae with 2 samples.

Results

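Nucleosomes whose occupancy differed 2-fold or more between wild-type budding yeast (Saccharomyces cerevisiae) and cells without Fun30 numbered 1988, among 40794 nucleosomes that could be matched between the 2 libraries. They made up 4.87% of the matched nucleosomes. In the fun30 deletion library 1055 of them (2.59% of the matched nucleosomes) were higher and 933 (2.29%) were lower. A nucleosome is the stretch of DNA wrapped around a histone octamer, and its occupancy is how often that DNA was recovered as protected from digestion. Fun30 belongs to the Snf2 family of chromatin remodellers, enzymes that use ATP to slide nucleosomes or exchange their histones. It is known in budding yeast for its part in silent chromatin and in the resection of broken DNA ends.

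Both libraries came from strain BY4741, a standard haploid laboratory strain, and were grown in rich medium (YPD) at 30 °C, with 1 library labelled wild type and 1 labelled fun30D, the deletion of FUN30. Cells were fixed with paraformaldehyde (1%, 30 min) and nuclei were treated for 10 min at 37 °C with micrococcal nuclease. This enzyme cuts the linkers between nucleosomes, and DNA of single nucleosomes was then purified and sequenced. The labels name no replicate, so a difference covers genotype, culture, digestion and library preparation together, and these cannot be told apart. No test between genotypes was made.

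The members were chosen by the occupancy ratio, so their ratios are a description. A wild-type and a mutant call on chromosomes 1 to 16 formed a pair if they were mutually nearest and no more than 73 bp separated their centres. An occupancy minimum, just above 2 times the lowest deposited value of 0.0824 (0.1649), had to be reached in at least one library, which 32652 pairs did. Of them 3.23% reached a ratio of 2 or more and 2.86% a ratio of 0.5 or less (fun30 deletion over wild type), 6.09% in all. By its choice the minimum removed no 2-fold pair. The remaining 30664 pairs, with less than a 2-fold difference, are called the other pairs below. The files list no reads, so the depth behind a call is unknown. Positions are those of the files, whose genome build the sources used here do not give, and no gene was assigned to them. The occupancy values have nearly the same distribution in both files, which favours similar numbers of higher and lower pairs.

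Most of the 2-fold pairs joined a weak call with one of ordinary strength. The higher pairs had a median occupancy of 0.119 in the wild-type and 0.287 in the mutant library, with ranges of 0.0824 to 1.30 and 0.167 to 4.06. Among the lower pairs the medians were 0.292 and 0.1205, with ranges of 0.171 to 5.84 and 0.0825 to 2.80. The 2 groups were thus close to mirror images, and both had stronger calls near the median of the other pairs, 0.297 (wild type) and 0.298 (mutant). The weaker call lay under 0.1, close to the lowest deposited value, in 298 higher pairs (28.2%) and 269 lower pairs (28.8%), against 287 of the other pairs (0.936%). This contrast follows from the rule, since one call of a pair had to reach the minimum and the calls of an other pair differ by less than 2-fold. In 134 higher and 115 lower pairs both calls reached the median occupancy of all calls, 0.210.

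The differences were mostly just above 2-fold. The median fold was 2.25 among the higher and 2.26 among the lower pairs, and 73.5% and 72.3% of them stayed under 2.5-fold. A fold of 3 was reached by 88 higher ones (8.34%) and 74 lower ones (7.93%). Just inside the threshold, a pair on chromosome 15 at 899148 went from 0.2101 in wild type to 0.4203 in the mutant. Just outside it, a pair on chromosome 6 at 168511 went from 0.333 to 0.666, which is 1.9997-fold. On the lower side, the nearest pair inside was on chromosome 4 at 1386481, whose occupancy went from 0.205 to 0.102. The nearest one outside was on chromosome 11 at 111220, with 0.233 and 0.116.

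**Figure D1:**
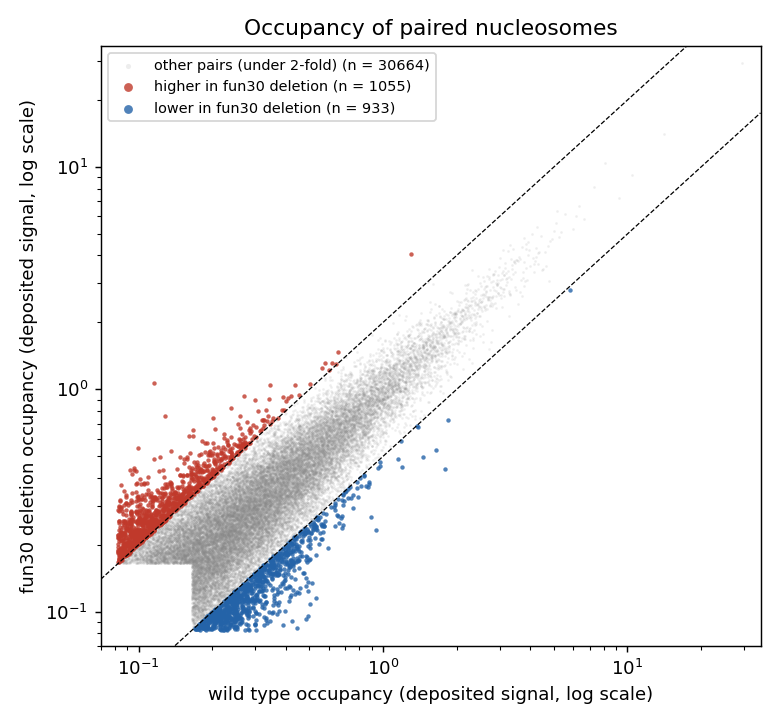
Each point is a pair of matched nucleosomes, with the wild-type occupancy on the horizontal and the fun30 deletion occupancy on the vertical axis, both as the deposited signal on log scales. The dashed lines mark 2-fold differences: 1055 pairs (red) lie above and 933 (blue) below, mostly at low occupancy, and the empty corner holds pairs under the minimum in both libraries.

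The largest increase in the mutant library was on chromosome 4. The call at 63680 had an occupancy of 0.115 in wild type, and its mutant partner at 63628 had 1.07, a 9.23-fold difference. The mutant call lay 52 bp away from the wild-type call and next to a strong nucleosome present in both libraries, whose occupancy was 1.12 at 63541 in the wild-type and 1.31 at 63523 in the mutant library. In wild type a further call at 63772, with an occupancy of 0.190, lay on the other side of the weak one.

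The second largest increase, on chromosome 6, went from 0.129 at 195720 to 0.755 at 195759, or 5.87-fold. Here wild type had a stronger call of 0.542 only 79 bp away, at 195799. The mutant call lay 39 bp from the weak wild-type call and almost as near to the stronger one, so the match was a near tie. With the stronger call as partner, the occupancies would have been 0.542 and 0.755. The mutant had a second call too, of 0.248 at 195869, 110 bp from the stronger one. When all calls within 100 bp of the pair's mean centre were summed, which leaves out that second mutant call, the libraries had 0.671 (wild type) and 0.755 (mutant). The third, on chromosome 4, went from 0.0996 at 484761 to 0.544 at 484695. The other pairs among the 10 largest increases ranged from 4.24-fold to 4.71-fold.

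The 10 largest increases shared a weak wild-type call, from 0.0849 to 0.129. They lay on 8 chromosomes. In 7 of them the centre differed by 20 bp or more, and in 6 the summed occupancy within 100 bp still differed 2-fold or more. At most of these 6 no other call lay in that window, so the sum only repeated the pair's own ratio. Within 300 bp the log2 ratio of the sums ran from 0.16 to 1.07 over the 10 increases. At 6 of these 10 places wild type had another call within 120 bp. Only the one on chromosome 16 at 928168, which went from 0.0956 to 0.445, was within 20 kb of the outermost call of its chromosome.

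The 5 higher pairs with the strongest calls differed by 2.04-fold to 3.11-fold, and in 4 of them the centres were at most 11 bp apart. On chromosome 13 the call at 557675 had 0.656 in wild type, and its partner 2 bp away had 1.48 in the mutant. Its neighbour at 557547 had 0.175, and the mutant call at 557550 had 0.169. On the other side, the call at 557887 had 0.147 and its mutant partner at 557884 had 0.224, and the call at 557991 had 0.342 and its partner at 557985 had 0.581. On chromosome 15 a call at 368323 went from 0.641 to 1.31, on chromosome 11 one at 566289 from 0.617 to 1.32, and on chromosome 12 one at 586068 from 0.580 to 1.32. The strongest higher pair of all, on chromosome 12, had 1.30 at 460474 (wild type) and 4.06 at 460517 (mutant), 43 bp apart. Its left neighbour in wild type, 106 bp away, had 2.30. The call with the highest occupancy of either library, 29.4, lay further to the left, centred on 459888 (wild type) and 459887 (fun30 deletion). Only 5 calls of each library lay within 5 kb of the pair, with median occupancies of 10.4 and 9.21 against 0.211 and 0.209 over the whole chromosome. The next call to the right was 29097 bp away in wild type. Chromosome 12 carries the repeated ribosomal RNA genes, and the placement of reads from repeats is not stated in the sources used here. Whether the place lies in these repeats was not tested.

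Chromosome 10 held the largest decrease. There a call at 703557 had 0.446 in wild type and its partner at 703534 had 0.0843 in the mutant, or 5.29-fold less. The neighbouring nucleosome at 703660 was also a 2-fold pair in the same direction, going from 0.477 to 0.236. On chromosome 15 a call at 230821 went from 0.483 to 0.0932, and on chromosome 7 a call at 458711 from 0.493 to 0.0954. The 10 largest decreases reached 3.97-fold to 5.29-fold, lay on 7 chromosomes and were all further than 20 kb from the outermost call of their chromosome. The summed occupancy within 100 bp still differed 2-fold or more in 9 of them, and the centre differed by 20 bp or more in 6. At most of these 9 no other call lay in that window, so the sum only repeated the pair's own ratio. Within 300 bp the log2 ratio of the sums ran from -2.22 to 0.15 over the 10 decreases.

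Strong nucleosomes were found among the largest decreases as well. On chromosome 9 the call at 241098 went from 1.79 to 0.440 without a displacement of its centre, with widths of 138 and 136 bp. Its right neighbour at 241299 had 0.831 in wild type, and the mutant had 1.02 at 241300. On chromosome 13 the call at 91746 went from 0.939 to 0.233, 2 bp away. By contrast, the decrease on chromosome 13 at 356082 came with a different arrangement of calls. Its wild-type call was 160 bp wide with an occupancy of 0.388, and the mutant had 2 narrower calls instead, 85 bp wide with 0.0870 at 356125 and 106 bp wide with 0.280 at 356032. Summed occupancy within 100 bp was then 0.388 for wild type against 0.367 for the mutant.

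The lower pair with the strongest call was on chromosome 6 at 4739, which went from 5.84 to 2.80 with an unchanged centre. It lay 0.539 kb from the outermost call of the chromosome. On chromosome 5 a call at 192463 went from 1.84 to 0.727, again with an unchanged centre. There the mutant had another call of 0.955 within 120 bp, and the summed occupancies within 100 bp were 1.84 and 1.68.

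**Figure D2:**
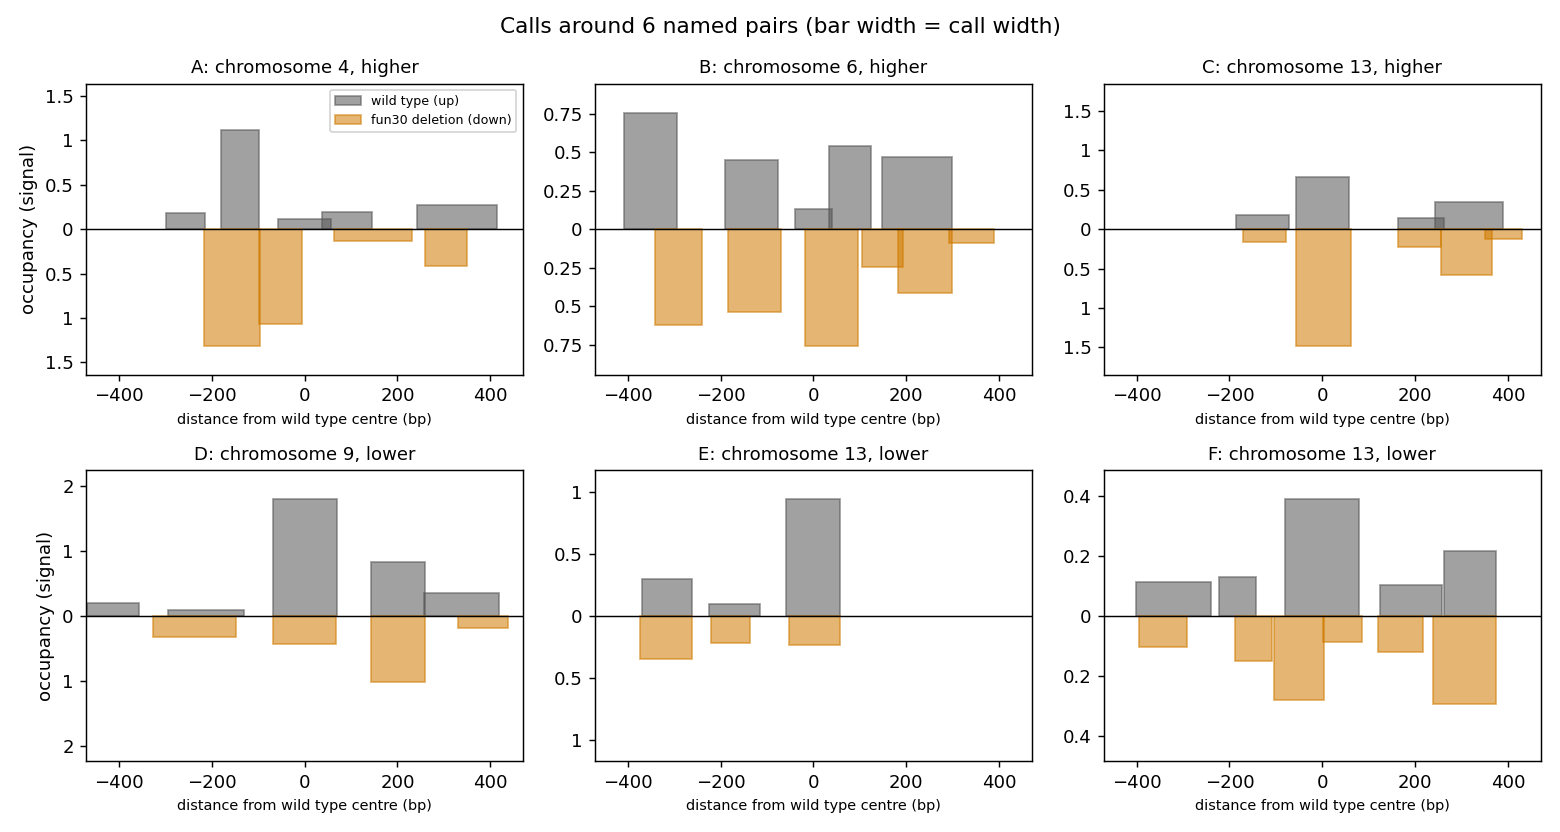
Calls within 420 bp of 6 named pairs, with distance from the wild-type centre in bp on the horizontal axis and occupancy on the vertical axis, wild type upwards and fun30 deletion downwards, each bar as wide as its call. Panels C, D and E show pairs whose centres differed by at most 2 bp while occupancy differed, panel B shows a weak wild-type call 79 bp from a stronger one, and panel F a place where 2 mutant calls faced 1 wild-type call.

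Place along the genome was examined next. Higher and lower pairs were spread over all 16 chromosomes. The share of higher pairs among those that reached the occupancy minimum ran from 2.09% on chromosome 3 (95% interval 1.26 to 3.24%) to 3.89% on chromosome 10 (3.10 to 4.82%). The share of lower pairs ran from 2.25% on chromosome 9 (1.51 to 3.21%) to 3.24% on chromosome 6 (2.11 to 4.74%). The interval held the share over all chromosomes on 16 chromosomes for the higher and on 16 for the lower pairs. These intervals are exact binomial ones, as are those below, and cover counting error over nucleosomes only. Higher pairs outnumbered lower ones on 11 chromosomes, were fewer on 4 and equal on 1, and the most unequal counts were the 94 higher and 62 lower pairs of chromosome 16.

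Consecutive 2-fold pairs were a median of 4112 bp apart, with quartiles of 1607 and 8369 bp. Of 1208 windows of 10 kb, 227 held no 2-fold pair, 700 held 1 or 2 and 8 held 6 or more. The fullest window, on chromosome 10 from 680001 to 690000, held 5 higher and 3 lower pairs. Each of the 8 fullest windows held pairs of both directions, the most one-sided being that on chromosome 10 from 200001 to 210000 with 5 higher and 1 lower. No run of 3 or more consecutive pairs in one direction was found.

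Chromosome 1 carries FUN30, and 18 consecutive wild-type calls there, with centres from 115011 to 117922, were unmatched in the mutant. The chromosome held 15 higher and 17 lower pairs. Among its pairs over the occupancy minimum these made up 2.40% (1.35 to 3.92%) and 2.72% (1.59 to 4.31%). The shares over all chromosomes, 3.23% and 2.86%, lay within these intervals. The nearest 2-fold pairs to this stretch were both lower. One was at 112113, 2898 bp before it, going from 0.198 to 0.0833, and the other was at 120362, 2440 bp after it, going from 0.254 to 0.124.

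Near the chromosome ends the counts were small. Within 5 kb of the outermost call, 11 of 241 pairs were higher (4.56%, 2.30 to 8.02%) and 17 were lower (7.05%, 4.16 to 11.1%). Beyond 30 kb the shares were 3.23% (3.04 to 3.44%) and 2.81% (2.63 to 3.001%). The share of lower pairs within 5 kb was thus above that of the interior beyond counting error, and the share of higher pairs was not. The 5 kb intervals of higher and lower pairs overlapped each other, so a difference between directions is not shown. Within 30 kb 3.22% were higher (2.51 to 4.07%) and 3.56% lower (2.81 to 4.44%), and both intervals overlapped those beyond 30 kb. Close to the right end of chromosome 1, 2 neighbouring nucleosomes were both higher. They went from 0.166 at 228730 to 0.657 and from 0.239 at 229008 to 0.824, and the first lay 1262 bp from the outermost call.

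The displacement of centres was compared because the study's title speaks of sliding nucleosomes. Centres lay 20 bp or more apart in 36.5% of the higher pairs (33.6 to 39.5%), in 37.6% of the lower pairs (34.5 to 40.8%) and in 21.5% of the other pairs (21.1 to 22.0%). The median displacement was 13 bp in both groups of 2-fold pairs and 8 bp in the other pairs. Displacements of 40 bp or more were seen in 16.2% of the higher, 13.3% of the lower and 5.64% of the other pairs. There was no preferred direction along the chromosome. Of the higher pairs 19.2% were displaced to higher and 17.3% to lower coordinates, and of the lower pairs 18.4% and 19.2%.

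The shares were then set side by side in classes of occupancy. Occupancy chose the members, and in a class of the weaker call the other pairs have weaker partners than the 2-fold pairs by construction, so the groups in a class are not alike. When the weaker call was under 0.1, centres were displaced in 46.0% of the higher (40.2 to 51.8%), 50.9% of the lower (44.8 to 57.1%) and 45.3% of the other pairs (39.4 to 51.3%). With a weaker call from 0.17 to below 0.25 the shares were 23.7% (17.5 to 30.8%), 28.9% (21.7 to 36.8%) and 26.8% (25.8 to 27.8%). In all 5 classes of the weaker call the intervals of higher, lower and other pairs overlapped. Grouped by the stronger call instead, the 2-fold pairs were displaced more often in 4 of 5 classes, with intervals apart from those of the other pairs. From the minimum to below the median occupancy the intervals overlapped, with 44.3% of the higher (36.2 to 52.7%), 45.97% of the lower (36.99 to 55.1%) and 36.6% of the other pairs (35.3 to 37.9%). Where the stronger call reached 0.5, the shares were 22.7% of the higher (15.9 to 30.8%), 20.2% of the lower (12.8 to 29.5%) and 7.46% of the other pairs (6.92 to 8.04%). In a class of the stronger call the 2-fold pairs have the weaker partners by construction. Among other pairs the displaced share fell to 12.7% (12.2 to 13.2%) when the weaker call was 0.25 or more. The excess is thus not one at like occupancy of both calls. Across pairs the displaced share went up with the fold as well, from 19.0% of pairs higher in the mutant by less than 1.2-fold to 53.4% (42.5 to 64.1%) of those higher by 3-fold or more, whose weaker calls had median occupancies of 0.329 and 0.0995. Pairs lower in the mutant went from 17.8% to 54.1% (42.1 to 65.7%) over the same range of fold. Unmoved members were common too, with centres within 5 bp in 29.9% of the higher, 26.9% of the lower and 43.0% of the other pairs.

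**Figure D3:**
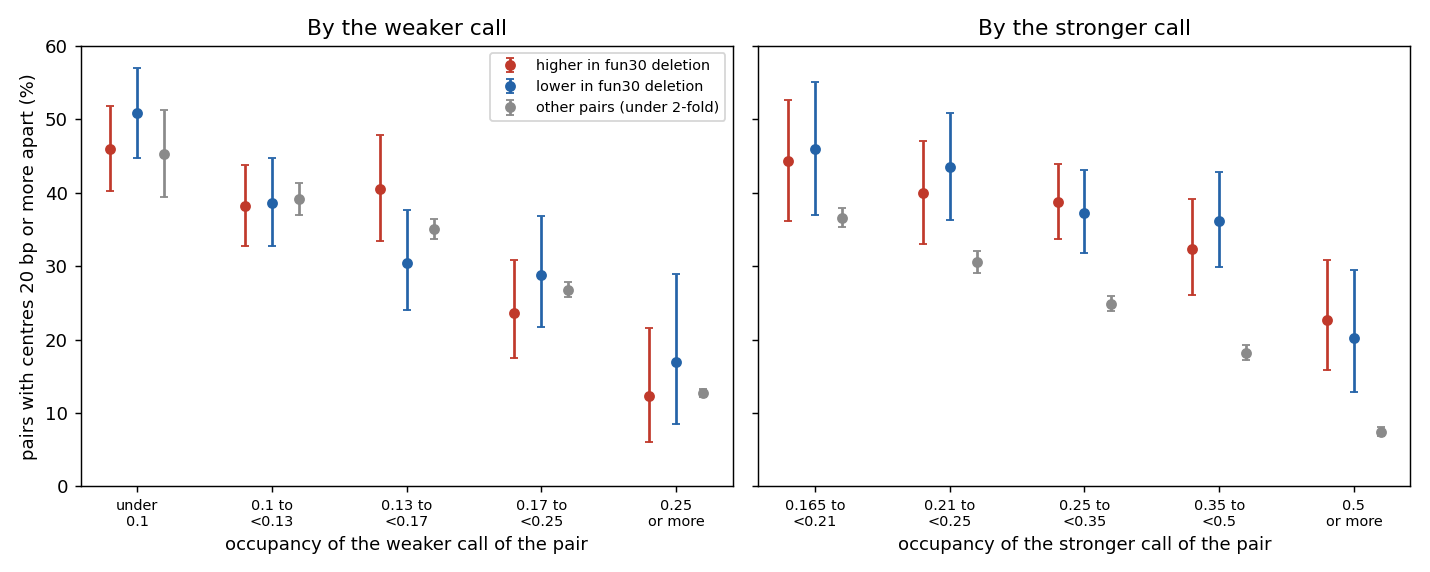
Share of pairs (%) with centres 20 bp or more apart, by the occupancy of the weaker call (left) and of the stronger call (right), with exact 95% intervals as bars. In classes of the weaker call the 3 groups overlap, from 45.3 to 50.9% in the lowest class, whereas in the highest class of the stronger call the 2-fold pairs lie at 22.7% and 20.2% and the other pairs at 7.46%. By construction the 2-fold pairs in a class of the stronger call have weaker partners than the other pairs.

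Call width is the length of DNA assigned to a nucleosome, between 80 and 180 bp in these files. The weaker call of a 2-fold pair was slightly narrower at the median and more variable in the higher pairs. Higher pairs had a median width of 110 bp in wild type (SD 24.1 bp) and 113 bp in the mutant (SD 17.6 bp). Lower pairs had 114 bp in wild type (SD 22.2 bp) and 109 bp in the mutant (SD 22.9 bp). Within pairs the median difference, mutant minus wild type, was 3 bp (1 to 5 bp) for the higher and -2 bp (-4 to -1 bp) for the lower pairs, and 0 bp for the other pairs. Calls narrower than 100 bp made up 34.1% of the weaker calls of higher pairs and 33.4% of those of lower pairs. Among the stronger calls they made up 13.6% in the mutant and 23.5% in wild type.

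The stronger calls differed between the directions in how often they had a typical width. Of the mutant calls of higher pairs 74.3% were 100 to 130 bp wide (71.6 to 76.9%), against 65.6% of the mutant calls of the other pairs (65.0 to 66.1%). Of the wild-type calls of lower pairs 59.3% were of that width (56.0 to 62.4%), against 60.2% of the wild-type calls of the other pairs (59.6 to 60.7%). The same held between calls of like occupancy in each library. For mutant calls from 0.25 to below 0.35 the share was 72.6% in higher pairs (67.8 to 77.1%) and 63.1% in other pairs (61.9 to 64.3%), and from 0.35 to below 0.5 it was 82.6% (76.7 to 87.5%) and 71.7% (70.4 to 72.9%). Of the 5 classes from 0.17 upwards, only that of 0.5 or more had overlapping intervals, with 86.4% (79.3 to 91.7%) and 81.97% (81.1 to 82.8%). With a range 5 bp shorter, the intervals also overlapped from the median occupancy to below 0.25, with 62.6% (55.5 to 69.4%) and 55.1% (53.4 to 56.7%). For wild-type calls of lower pairs the shares from 0.25 to below 0.35 were 57.97% (52.1 to 63.7%) and 58.2% (56.9 to 59.4%). From 0.35 to below 0.5 they were 65.2% (58.5 to 71.4%) and 65.2% (63.9 to 66.5%). So wild-type calls that were 2-fold stronger than their partners had widths like other wild-type calls, and mutant calls that were 2-fold stronger were more often of typical width than other mutant calls. For the weaker calls the intervals overlapped those of other calls in each class shown. Below 0.13 the share was 40.8% in the wild-type calls of higher pairs and 41.6% in other pairs, and 43.3% and 46.1% in the mutant calls of lower and other pairs. From 0.25 to below 0.35 it was 71.0% (58.1 to 81.8%) in 62 wild-type calls of higher pairs, against 58.2% in other pairs. In 34 mutant calls of lower pairs it was 70.6% (52.5 to 84.9%), against 63.1%. With so few calls, a gap like that of the stronger mutant calls is neither shown nor excluded there.

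**Figure D4:**
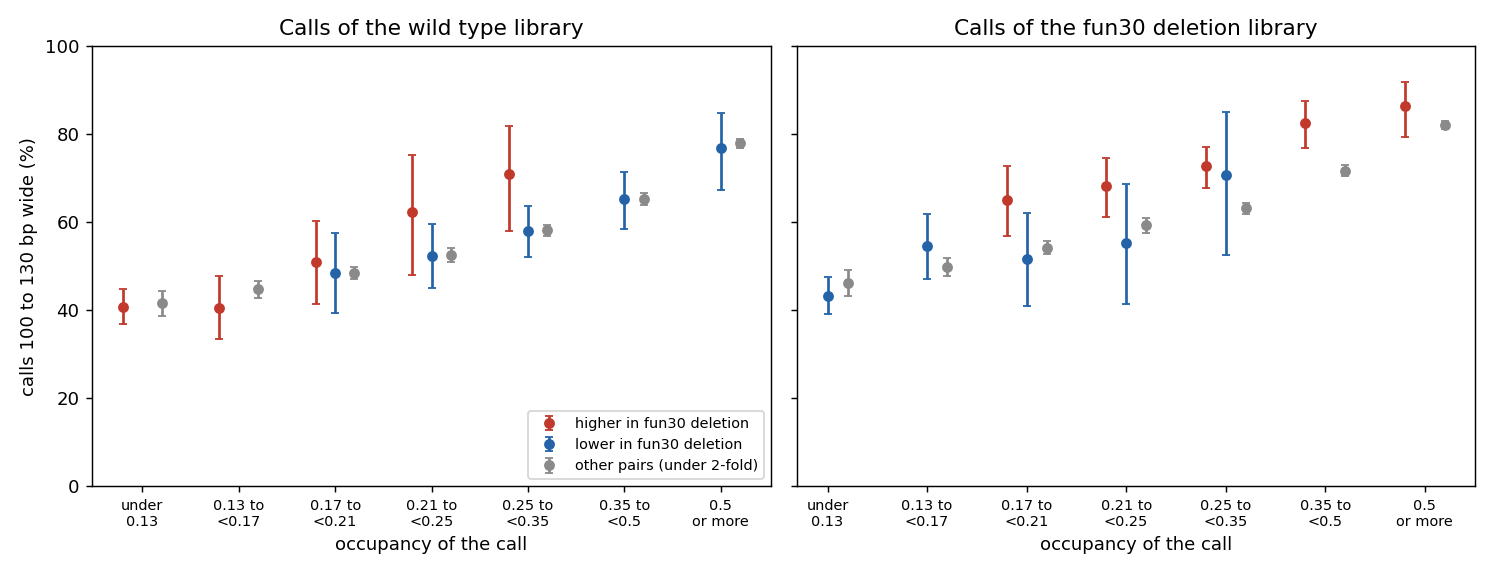
Share of calls (%) that were 100 to 130 bp wide, by the occupancy of the call itself, in the wild-type (left) and fun30 deletion library (right), with exact 95% intervals as bars and classes of fewer than 20 calls left out. In the mutant library the red points of higher pairs lie above the grey points of other pairs, 82.6% against 71.7% from 0.35 to below 0.5, while in wild type the blue points of lower pairs lie with the grey ones, both at 65.2% in that class.

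Neighbours were examined for spacing first. A nucleosome was counted as regularly spaced when both adjacent calls lay from 140 to below 190 bp away. Of the higher pairs 8.53% were so placed in wild type (6.92 to 10.4%) and 13.3% in the mutant (11.3 to 15.5%). Of the lower pairs 8.90% were so placed in wild type (7.15 to 10.9%) and 6.75% in the mutant (5.23 to 8.56%). The other pairs had 13.5% in wild type and 15.2% in the mutant. Among higher pairs regular spacing was more frequent in the mutant, with intervals apart, and among lower pairs the intervals overlapped. Both shares of a group come from the same pairs, which these intervals leave out of account. The other pairs also had the larger share in the mutant, by a smaller margin than the higher pairs. At like occupancy, mutant calls of higher pairs were regularly spaced about as often as other mutant calls, with 21.2% (14.6 to 29.2%) and 23.2% (22.2 to 24.2%) at 0.5 or more and overlapping intervals in all 5 classes from 0.17 upwards. Wild-type calls of lower pairs were so less often than other wild-type calls in 2 of these 5 classes, with 10.1% (4.95 to 17.8%) and 20.6% (19.7 to 21.6%) at 0.5 or more, and 8.04% (4.83 to 12.4%) and 13.8% (12.9 to 14.8%) from 0.35 to below 0.5. In the other 3 classes, which hold 610 of the 933 lower pairs, the intervals overlapped, for example with 9.15% (6.12 to 13.0%) and 11.7% (10.9 to 12.5%) from 0.25 to below 0.35.

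A second call close to the weaker one was common. Another call of the same library lay within 120 bp of the weaker call in 38.3% of the higher pairs (35.3 to 41.3%) and 40.1% of the lower pairs (36.9 to 43.3%). Around the stronger call it did in 29.7% (26.9 to 32.5%) and 35.7% (32.6 to 38.9%). For the other pairs it was 32.2% (wild type) and 30.6% (mutant). The close call had a median occupancy of 0.224 (0.209 to 0.239) in wild type at the higher pairs, near the median of all calls, 0.210. In the mutant at the lower pairs its median was above that, at 0.262 (0.247 to 0.280). Close calls of the other pairs had medians of 0.211 (wild type) and 0.207 (mutant). The close call was unmatched in the other library in 34.2% of 404 cases at the higher pairs and in 24.3% of 374 at the lower pairs, against 27.8% and 26.4% for the close calls of the other pairs in wild type and mutant.

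Wide gaps were tallied because the study's title places its question at promoter-proximal nucleosomes, which flank nucleosome-free regions. Wide gaps without gene positions are not known to be promoters. A distance of 220 bp or more to the next call on the same side in both libraries was seen at 39.1% of the higher pairs (36.1 to 42.1%), 43.2% of the lower pairs (39.99 to 46.4%) and 36.8% of the other pairs (36.2 to 37.3%). Other pairs flanked gaps more often when their weaker call was weak, with 49.5% (43.6 to 55.4%) under 0.1 and 31.6% (30.9 to 32.4%) at 0.25 or more. In like classes of the weaker call, with the same limit as for displacement, the higher pairs were beside a gap less often than the other pairs from 0.1 to below 0.13, with 37.2% (31.9 to 42.8%) against 46.1% (43.9 to 48.3%), and from 0.13 to below 0.17, with 34.7% (27.99 to 41.97%) against 43.8% (42.3 to 45.2%). In the other 3 classes the intervals of the higher pairs overlapped those of the other pairs, and those of the lower pairs did in all 5. Grouped by the stronger call instead, the intervals of higher and other pairs overlapped in all 5 classes. In these classes the 2-fold pairs have weaker partners than the other pairs by construction. Lower pairs were then beside a gap more often than other pairs from 0.25 to below 0.35, with 46.4% (40.6 to 52.3%) against 38.2% (37.0 to 39.3%). In the remaining classes of the stronger call the intervals of lower and other pairs overlapped.

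The next pairs had median ratios near 1. The median log2 ratio of the next pair on either side was 0.00 (-0.02 to 0.03) beside higher pairs and 0.02 (-0.01 to 0.05) beside lower pairs. Before a higher pair the median occupancy was 0.226 in both libraries, and after it 0.228. At ranks 2 and 3 on both sides of higher and lower pairs the median log2 ratio ran from -0.048 to 0.055, the highest being at rank 2 after higher pairs. Adding up all calls around a pair therefore diluted its difference with distance. The median log2 ratio of summed occupancy was 1.11 within 100 bp, 0.69 within 150 bp and 0.34 within 300 bp for higher pairs, and -1.11, -0.62 and -0.34 for lower pairs. The summed occupancy within 100 bp still differed 2-fold or more in the same direction at 815 higher pairs (77.3%) and 699 lower pairs (74.9%), and it differed in the other direction at 143 (13.6%) and 134 (14.4%). Within 300 bp, 10.995% of the higher and 13.3% of the lower pairs still differed 2-fold or more in the same direction. The pair itself is part of these sums, so they are not independent of the choice of members.

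**Figure D5:**
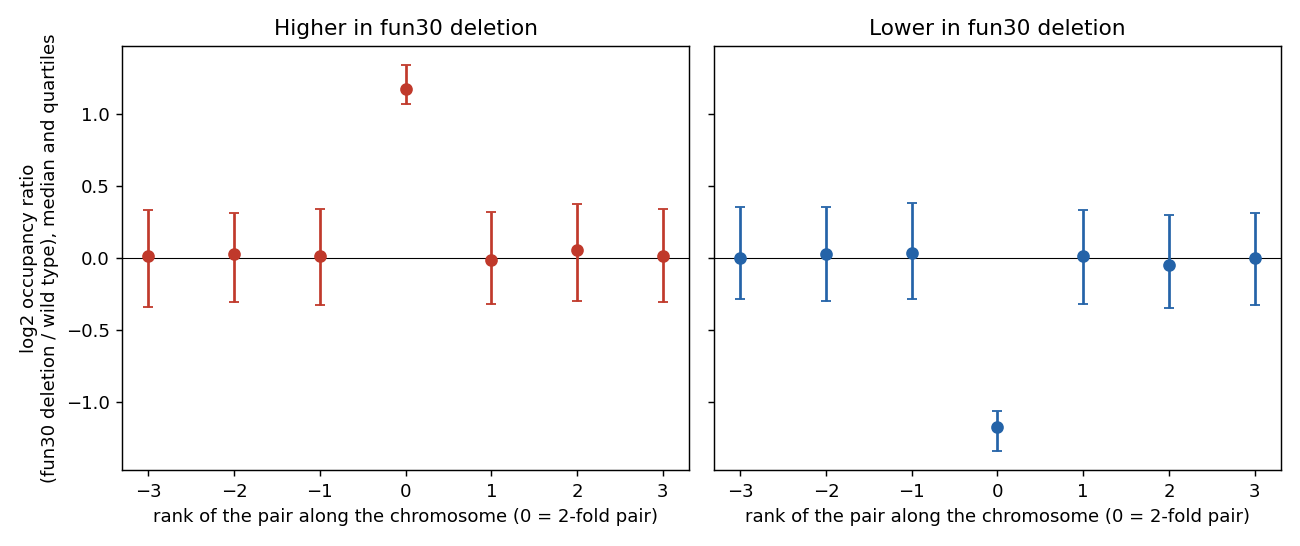
Log2 occupancy ratio (fun30 deletion over wild type) of the 2-fold pair at rank 0 and of the paired nucleosomes at ranks 1 to 3 on either side, with medians as points and quartiles as bars. The medians at rank 0 are 1.17 and -1.18 by the choice of members, and the medians of the neighbours run from -0.048 to 0.055.

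The closest neighbours of higher pairs stood apart from the regularly spaced ones. Where the next pair lay at most 120 bp away, so that both nucleosomes could not be fully wrapped on the same DNA, its log2 ratio had a median of -0.18 (-0.24 to -0.05) beside 272 higher pairs and 0.09 (0.04 to 0.18) beside 300 lower pairs. The sign was opposite to that of the 2-fold pair in 60.7% (54.6 to 66.5%) and 58.0% (52.2 to 63.6%) of cases. At 140 to below 190 bp it was opposite in 46.7% (42.6 to 50.7%) and 53.0% (48.3 to 57.6%), with medians of 0.03 beside both. An inverse relation was thus seen at overlapping neighbours of both groups, with intervals that treat each neighbour as separate. The shares of both groups are not independent. At 21 places at most 120 bp apart a higher and a lower pair were neighbours, and each counts as opposite in both shares. Shares without these places were not computed. Beside higher pairs the opposite share at overlapping neighbours was above that at regularly spaced ones, with intervals apart. Beside lower pairs the intervals at these distances overlapped, so a contrast with regular spacing is not shown for them. No such share for neighbours of the other pairs is given here.

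Where 2 consecutive pairs were both members, 64 such places had opposite directions and 52 the same direction, 28 of them higher and 24 lower. With 1055 higher and 933 lower pairs in all, similar numbers of both kinds would be found without any relation between neighbours. Whether opposite places were in excess was not tested. Opposite ones were a median of 143 bp apart (122.5 to 177.5 bp) and those of the same direction 191 bp (168 to 295 bp), with overlapping intervals. The following 3 examples have the largest summed log2 differences among the places with opposite directions and were chosen after their values were seen. On chromosome 15 the decrease from 0.483 to 0.0932 at 230821 had an increase from 0.109 to 0.403 beside it, at 230906. On chromosome 7 a call at 988807 went from 0.270 to 0.932 while the next at 988927 went from 0.896 to 0.266, so that the stronger of the 2 positions was a different one in each library. Beside the strong decrease on chromosome 9 at 241098, the pair at 240885 went from 0.0927 to 0.320.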

How the data were processed

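The deposited data are 1 list of nucleosome calls for each library, with chromosome, centre and width in bp, and an occupancy signal headed occ, per the file headers. Per the submitters' processing notes, alignment used Bowtie 0.12.7. The sources used here do not give the caller, the genome build, the scaling of the deposited signal or the read depth. The signal has nearly the same distribution in both files, so only its distribution along the genome can be compared. The wild-type file holds 48019 calls and the fun30 deletion file 48135, of which 48132 lie on chromosomes 1 to 16.

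Pairing, ratios, displacement (mutant minus wild-type centre), width differences, distances to neighbouring calls and sums of the signal in windows were computed with Python 3.11.15, pandas 2.3.3, numpy 2.4.6 and scipy 1.17.1, and pairing was tested on simulated data. In the simulation calls lay well apart, only strong ones were given a large change in occupancy, and centres moved little. Changes at weak calls and matching among close calls were thus not tested. Shares carry exact (Clopper-Pearson) 95% intervals and medians an interval from binomial ranks. Both cover counting error over calls, which are not replicates. There is 1 library per genotype, so no p-value is given. The members, classes and lists were chosen with earlier results of these data known, and the width range and class edges were reset to round values after first results had been seen. Pairs named are the 10 with the largest fold and the 5 with the strongest call in each direction, those nearest to the threshold, and examples stated as chosen later. Alternatives were other pairing distances, occupancy minimums, a 3-fold threshold and leaving out chromosome ends.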

Additional observations from a re-analysis of the deposited data

Results flagged for a closer look

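A chromosome numbered 17, beyond the 16 compared, carried 3 calls in the mutant list and 0 in the wild-type list. No comparison used these data. They had occupancies of 0.153 at 16404, 0.118 at 59906 and 0.0878 at 61932, all below the median of all calls.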

How the results depend on the processing

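Of 80 values under 7 alternatives to 15 results, not each run on every result, 55 stayed within 1.5 times the count or within the counting interval. A 3-fold threshold left 88 higher and 74 lower pairs. Their displaced shares were 53.4% and 54.1%, their width differences 7 and -4.5 bp, and the shares with a close call at the weaker one 46.6% and 50%. The summed log2 ratios within 100 bp were 1.63 and -1.63, the medians of the next pair -0.071 and -0.036, and 0.569% of the pairs within 30 kb of an end were then members, against 0.496% of all pairs over the minimum, in place of 6.78% and 6.09%. Requiring the occupancy minimum in both libraries, chosen after seeing the data, left 265 higher and 229 lower pairs, with displaced shares of 20.8% and 25.3%, sums of 1.07 and -1.08 and members making up 2.28% near the ends and 1.97% in all. Pairing up to 50 bp gave displaced shares of 31.4% and 33.6%, which follows from the shorter distance. With the median occupancy as minimum, the sum of higher pairs was 1.13. With the width range and class edges first used, a range 5 bp shorter, typical widths made up 70.9% of the stronger calls of higher pairs and 54.9% of those of lower pairs, against 61.4% and 55.97% in other pairs. The overlaps of intervals for displacement and wide gaps by the weaker call were as stated. For the other moves the cause was not tested, beyond the thresholds themselves. No paired analysis was possible because there is 1 library per genotype. Without read counts, the depth behind weak calls, which carry most 2-fold differences, is unknown.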
